A study of Mus musculus with 8 samples.

Results

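The small RNA reads of mouse sperm were examined for 7 noncoding genes: Gas5, Snhg1, Snhg3, Snhg5, Snhg6, Snhg8 and Snhg12. All 7 are host genes of small nucleolar RNAs (snoRNAs). They were chosen by symbol, and every exon or intron row of the deposited table that carries one of the 7 symbols was taken, 28 exon rows and 24 intron rows of 289792 in all. Exon and intron rows were summed separately for each gene. The 7 genes all had exon rows and 6 had intron rows, since Snhg8 is annotated with a single exon. The study sequenced small RNA of mouse sperm in a series on alcohol cessation and compared 4 ethanol libraries with 4 control libraries. The labels give sperm as the tissue and ethanol or control as the treatment, and Trizol and Qiaseq as the reagents. Strain, age, dose and the length of exposure or abstinence are not given in the labels, which also do not say whether each sample is a separate animal. The p-values therefore measure only how far these samples spread, which may be technical.

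A snoRNA host gene makes a transcript whose introns carry snoRNAs. After splicing, the excised intron is trimmed from both ends until the proteins assembled on the snoRNA stop the nucleases. Box C/D snoRNAs guide methylation of ribose in ribosomal RNA, and box H/ACA snoRNAs guide the conversion of uridine to pseudouridine. The spliced exons of Gas5 and several Snhg genes begin with the pyrimidine-rich start typical of ribosomal protein mRNAs. They code for no known conserved protein and are removed by nonsense-mediated decay in mammalian cells. In human cells the spliced Gas5 exons are also known as a long noncoding RNA that binds the glucocorticoid receptor. A read from an exon can thus come from the spliced host RNA, and a read from an intron from the snoRNA or from the unspliced or excised intron.

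GENCODE M21, an annotation of the mouse assembly GRCm38, places 27 snoRNAs inside the 7 genes. Gas5 and Snhg6 lie on chromosome 1, Snhg8 on chromosome 3, Snhg3 and Snhg12 on chromosome 4, Snhg5 on chromosome 9 and Snhg1 on chromosome 19. Of the 27 snoRNAs, 10 have a row of their own among the exon rows of the deposited table. The other 17 have none there, and their reads can appear in the row of the host. Rows of other types were not searched for them. The sequences below, from the GENCODE transcripts, are the snoRNAs on which the results turn: those of the 3 Gas5 introns, 3 of those in Snhg1, the near-identical pair of Snhg5, and those of Snhg6 and Snhg8. Capitals mark TGATGA and a later CTGA, the consensus letters of boxes C and D, or ACA, the box near the 3′ end of the H/ACA class. A GENCODE name beginning with Gm is a gene model with no snoRNA symbol.
Snord80 (Gas5 intron 1): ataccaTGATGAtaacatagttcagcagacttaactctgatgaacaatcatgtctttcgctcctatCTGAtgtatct
Snord47 (Gas5 intron 2): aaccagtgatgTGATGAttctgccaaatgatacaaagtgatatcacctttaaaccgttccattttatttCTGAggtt
Gm25789 (Gas5 intron 3): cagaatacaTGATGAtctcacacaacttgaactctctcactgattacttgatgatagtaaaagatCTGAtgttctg
Gm25894 (Snhg1 intron 2): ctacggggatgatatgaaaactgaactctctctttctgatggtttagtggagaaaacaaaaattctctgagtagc
Gm24452 (Snhg1 intron 3): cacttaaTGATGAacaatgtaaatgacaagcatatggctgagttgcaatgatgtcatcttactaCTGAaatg
Gm24453 (Snhg1 intron 4): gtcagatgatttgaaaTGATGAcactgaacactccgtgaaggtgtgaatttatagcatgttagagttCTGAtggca
Snord50b (Snhg5 intron 3): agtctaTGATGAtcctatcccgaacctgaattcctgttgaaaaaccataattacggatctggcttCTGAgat
Snord50a (Snhg5 intron 4): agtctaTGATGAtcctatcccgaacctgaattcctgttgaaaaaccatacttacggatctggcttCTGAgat
Snord87 (Snhg6 intron 2): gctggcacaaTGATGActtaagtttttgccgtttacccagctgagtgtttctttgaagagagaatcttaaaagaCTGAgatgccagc
Snora24 (Snhg8 exon): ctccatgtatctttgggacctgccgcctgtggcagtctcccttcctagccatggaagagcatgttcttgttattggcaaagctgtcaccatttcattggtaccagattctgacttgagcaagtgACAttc

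On the annotated strand, 17 of the 20 snoRNAs of the 7 hosts with a length of 60 to 100 bases held TGATGA and a later CTGA, and so did 320 of 458 GENCODE snoRNAs and scaRNAs of that length (69.87%). Gm25894 held no exact TGATGA. Snord50a and Snord50b are both 72 bases long and differ at 1 position, C50A, counted from 1 at the 5′ end with the Snord50a base first. The sources used here do not say how a read that fits both was placed, so the 2 Snhg5 introns cannot be told apart by such reads.

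Library totals ran from 3481865 to 6975180 counts in ethanol and from 4365887 to 4921827 in control sperm. The 7 hosts took 0.411% ± 0.152 of all feature counts in ethanol and 0.465% ± 0.0955 in control libraries (SD, n = 4 each). The libraries held markers of sperm and also of other cells. The 10 listed genes of spermatids and sperm, such as the protamines, summed to 214.6 to 575 CPM (counts divided by library size after TMM scaling) in ethanol and 527 to 690 CPM in control libraries, and 0 of the 10 passed the test, where 13.6% of all features were called (2 had an unadjusted p under 0.05, and the DESeq2 Wald test called 2). The 12 listed genes of the epididymal epithelium summed to 2862, 11147, 977 and 1467 CPM in ethanol replicates 1 to 4 and to 420.3 to 786 CPM in control libraries, and 6 of the 6 that could be tested rose, where 23.8% of all mRNA exon features were called higher. The 10 listed genes of blood and immune cells summed to 412, 2707, 185 and 308 CPM in ethanol and 95.6 to 132 CPM in control libraries; of 6 tested, 1 rose and 2 fell, and their log2 fold changes had a median of -1.66. Most of the sum in each ethanol library was Cd52, a surface antigen of lymphocytes that the epididymis also makes, with 394, 2685, 175 and 276 CPM in ethanol and 81.4, 56.6, 52.7 and 86.5 CPM in control libraries; the 2 that fell were the near-identical haemoglobin genes Hba-a1 and Hba-a2. Cd52, Hba-a1 and Hba-a2 were named with their values known. Every listed marker had a row in the table. Ethanol replicate 2 stood apart in the epididymal sum and in Cd52, and results are therefore also given without it. The part of other cells in the results below was not tested.

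The host reads came mostly from exons and introns that hold an annotated snoRNA (the plot of levels along 4 host transcripts). The 11 introns with a snoRNA that has no row of its own held 136354 counts over the 8 libraries, 82.7% of the host counts, or 45135 counts per kilobase. The 9 introns with a snoRNA listed separately in the table held 8028 counts, 2168 per kilobase. The 5 introns without an annotated snoRNA held 20 counts, 9.78 per kilobase. The exons gave the same picture. The 30 exons without an annotated snoRNA, 3226 bases in all, held 200 counts, 0.121% of the host counts and 62.0 per kilobase. One Gas5 exon, a long exon of the annotated model that spans 6 snoRNAs (Gm26224, Gm22489, Gm22357, Gm23212, Snord78 and Mir5117), held 19831 of the 19851 Gas5 exon counts. The single Snhg8 exon, which spans Snora24, held 449. The table gives no positions, so its exon and intron numbers were matched to the annotation by transcript accession and order. Of 56 snoRNA host genes on the minus strand, the intron with the most counts held the annotated snoRNA in 36 when numbered along the chromosome and in 1 when numbered along the transcript, and chromosome order was used. In the other 19, and in 29 of 58 host genes on the plus strand, the intron with the most counts was not the one that holds the annotated snoRNA, which limits the matching.

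**Figure D1:**
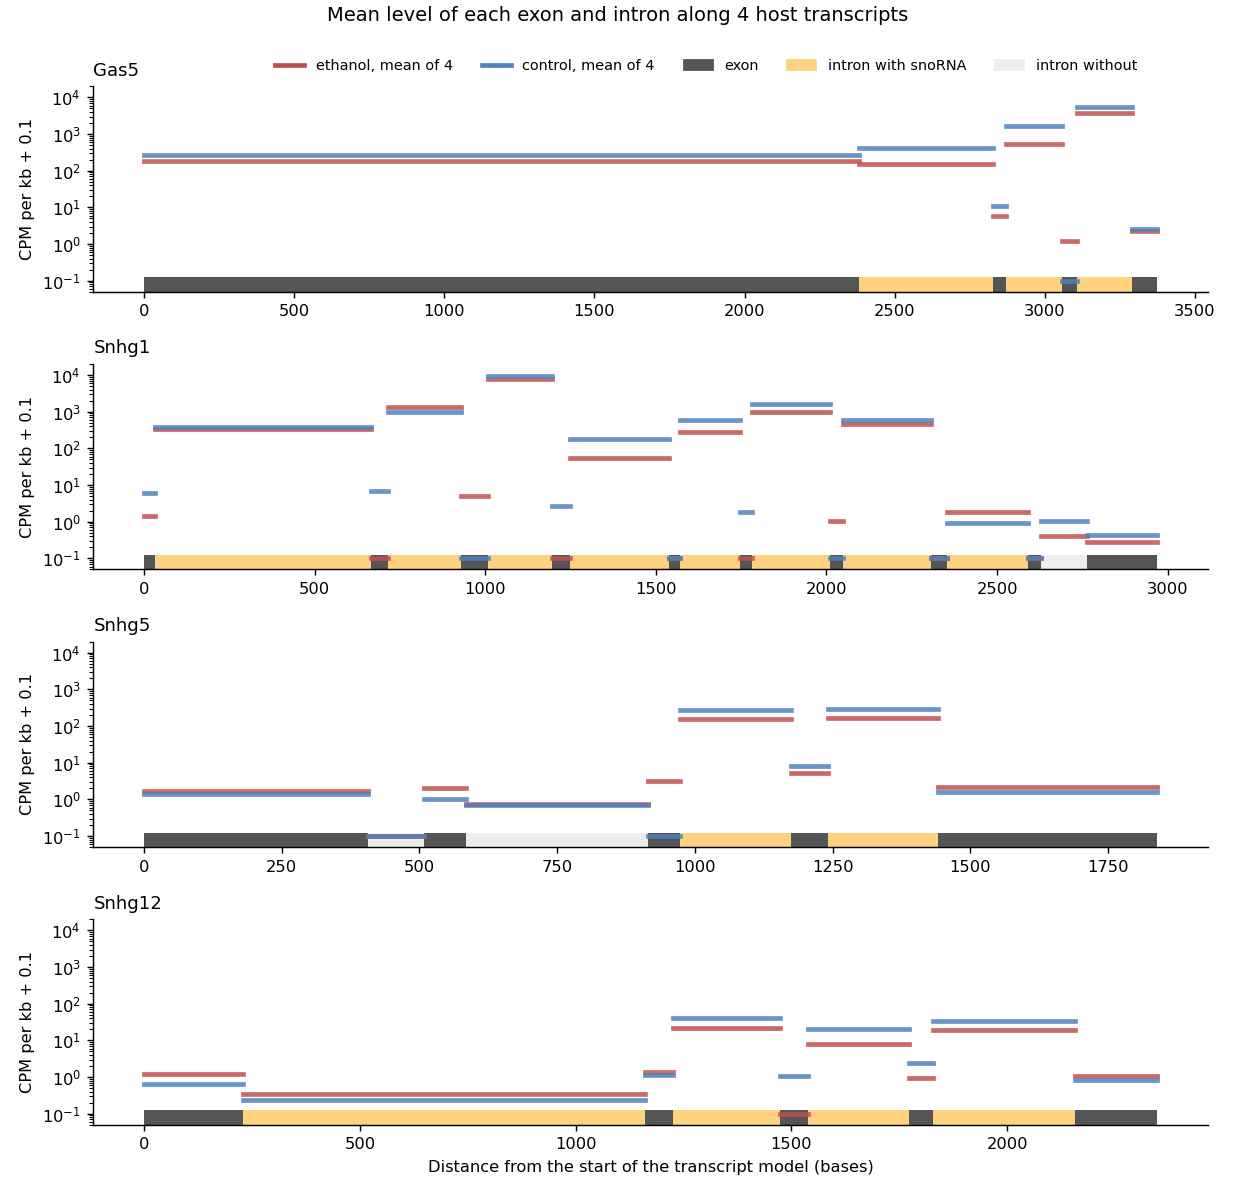
Mean CPM per kilobase plus 0.1 (log axis) of each exon and intron along the annotated transcripts of Gas5, Snhg1, Snhg5 and Snhg12, against distance from the transcript start in bases; red lines are the mean of 4 ethanol libraries and blue lines that of 4 control libraries. Introns with a snoRNA (yellow) and the long first Gas5 exon lie well above the other exons (dark) and the introns without a snoRNA (pale), except Snhg1 intron 8 and Snhg12 intron 1, whose snoRNAs have a row of their own.

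Reads of exons without a snoRNA, which can come from spliced host RNA, were few. Spliced host RNA can also add to the long Gas5 exon and the Snhg8 exon, which are left out of the sums below. Over the 6 hosts with exons that lack a snoRNA there were 37, 41, 25 and 28 counts in ethanol replicates 1 to 4. In control replicates 1 to 4 there were 21, 12, 15 and 21. In CPM these were 5.43, 8.63, 4.72 and 4.84 in ethanol and 5.50, 3.10, 3.74 and 5.84 in control libraries, and the groups overlapped. Per length, such exons of Gas5 gave 115 counts per kilobase (20 over 174 bases), those of Snhg3 80.1 (35 over 437 bases) and those of Snhg5 74.7 (75 over 1004 bases). Those of Snhg6 gave 62.5 counts per kilobase, of Snhg1 39.7 and of Snhg12 34.7. The exon sums of Snhg1, Snhg3, Snhg5, Snhg6 and Snhg12 consist of such exons and did not pass the count filter. An edgeR fit without that filter called 3451 of 45082 features and 0 of these 5 (0 also at an unadjusted p under 0.05). The log2 fold changes of the 5 were -0.52 ± 0.82, 1.19 ± 0.75, 0.37 ± 0.54, 1.46 ± 0.88 and 0.18 ± 0.88 (edgeR adjusted p = 0.767, 0.400, 0.749, 0.362 and 0.927). With standard errors of this size, these values do not show that spliced host RNA was alike in both groups.

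Summed over all their exons, 2 of the 7 hosts, Gas5 and Snhg8, had enough counts to be tested, and both of those sums can hold snoRNA reads. Neither passed the edgeR quasi-likelihood test with Benjamini-Hochberg adjustment over 13515 features, where 13.6% of all features and 14.3% of 182 noncoding exon features were called. The count of 0 was the same at an unadjusted p under 0.05 and with the DESeq2 Wald test. Gas5 exons had 533, 556, 430.2 and 264 CPM in ethanol and 666, 683, 681 and 516 CPM in control libraries. Ethanol replicates 1 and 2 lay above control replicate 4, and ethanol replicates 3 and 4 below every control. The log2 fold change was -0.51 ± 0.42 (SE, edgeR adjusted p = 0.394), and -0.71 without ethanol replicate 2 (adjusted p = 0.247). In bulk libraries fewer cells of a type and less RNA per cell cannot be told apart.

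**Figure D2:**
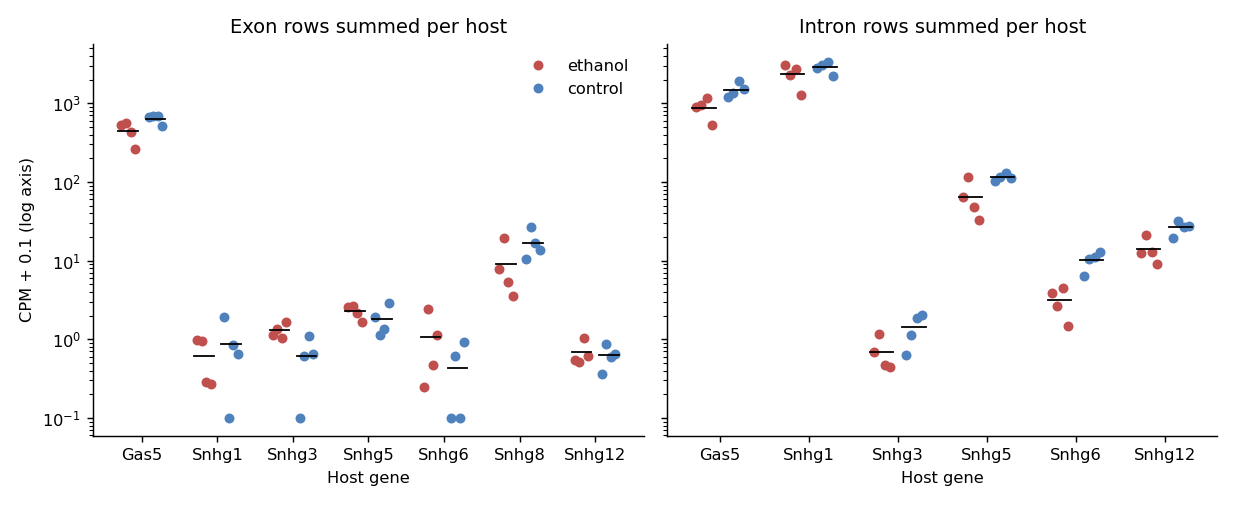
CPM plus 0.1 (log axis) of each host in each library, with exon rows on the left and intron rows on the right; red points are ethanol and blue points control libraries, and bars are means of 4. Only Gas5 and Snhg8 exons exceed 3 CPM, and among introns the ethanol points of Gas5 and Snhg6 all lie below the control points.

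Of the 6 hosts with intron rows 5 could be tested. Their log2 fold changes were all negative, with Snhg6 past the threshold. Of all 5159 introns 1.88% were called lower in ethanol, 4094 had a negative log2 fold change and the median was -0.38. In Gas5 and Snhg6 every ethanol library lay below every control library, which was so for 11.5% of introns and 33.7% of 89 snoRNAs. The host intron counts lay almost wholly in introns with a snoRNA, and of the 89 snoRNAs 20.2% were called lower. Gas5 introns had 889, 955, 1158 and 524 CPM in ethanol and 1202, 1347, 1893 and 1532 CPM in control libraries. The log2 fold change was -0.76 ± 0.43 (edgeR adjusted p = 0.222), and without ethanol replicate 2 it was -0.88 (adjusted p = 0.171).

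Snhg1 introns had 3109.8, 2260.3, 2702 and 1274 CPM in ethanol and 2812, 3033, 3367 and 2235 CPM in control libraries. The groups overlapped (log2 fold change -0.29 ± 0.43, edgeR adjusted p = 0.660; without ethanol replicate 2 -0.35, adjusted p = 0.620). Snhg1 is a box C/D host, with a snoRNA in 8 of its 9 introns. Snhg5 introns had 64.3, 114, 47.5 and 32.3 CPM in ethanol and 103, 117, 128 and 113 CPM in control libraries. Ethanol replicate 2 lay within the control range and the other ethanol libraries below it. The log2 fold change was -0.84 ± 0.44 (edgeR adjusted p = 0.191), and without ethanol replicate 2 it was -1.33, past the threshold (adjusted p = 0.0182).

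Snhg6 introns, one of which holds the box C/D snoRNA Snord87, fell to 3.82, 2.53, 4.34 and 1.38 CPM in ethanol, against 6.28, 10.3, 11.0 and 12.8 CPM in control libraries. These values rest on 26, 12, 23 and 8 counts in ethanol and 24, 40, 44 and 46 in control libraries. The row of Snord87 itself, given below, held far more counts and did not pass. The log2 fold change of the Snhg6 introns was -1.73 ± 0.41 (edgeR adjusted p = 0.0287), and it was -1.73 without ethanol replicate 2 (adjusted p = 0.00616). The call was lost without any 1 of the 4 control libraries (adjusted p = 0.0615 to 0.0953) and with limma-voom (adjusted p = 0.0523), while the sign held in every setting tried. Snhg12, host of 3 H/ACA snoRNAs and of the box C/D Snord99, had 12.5, 21.04, 12.6 and 8.99 CPM over its introns in ethanol and 19.1, 32.1, 26.7 and 27.3 CPM in control libraries. Only ethanol replicate 2 lay above the lowest control. The log2 fold change was -0.93 ± 0.36 (edgeR adjusted p = 0.0934), and without ethanol replicate 2 it was -1.27 (adjusted p = 0.00845). The latter fit keeps control replicate 2, the highest control, which adds to this fall. Snhg3 introns, which hold the H/ACA snoRNAs Snora73a and Snora73b, had 33 counts over 8 libraries and were not tested.

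The introns of a host did not all behave as its sum. Rows of single introns were tested in a further fit with exon and intron rows kept apart, added after the data had been seen. It has scaling factors of its own, while the CPM given with its results keep those of the summed features, so fold changes and CPM do not match exactly. The row of the long Gas5 exon stood at -0.28 in it, against -0.51 for the Gas5 exon sum above. Of the 24 intron rows of the hosts 16 could be tested; 3 fell and 0 rose, against 1.77% of 3443 intron rows called lower, and 15 of the 16 log2 fold changes were negative with a median of -0.59, where 2431 of all 3443 intron rows were negative with a median of -0.27. In 7 of the 16 every ethanol library lay below every control library, against 12.5% of intron rows. All 16 hold an annotated snoRNA. Of the 89 snoRNA features in the main fit 20.2% were called lower, and in 33.7% every ethanol library lay below every control library. Without ethanol replicate 2 the number of host intron rows that fell was 8, and without any 1 control, or without ethanol replicate 4, it was 0. The shares over all intron rows in these fits were not counted.

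Gas5 intron 2, which holds Snord47, was 1 of the 3 that fell. It had 130.1, 94.3, 119.6 and 67.4 CPM in ethanol and 256, 335, 313 and 328 CPM in control libraries. The groups lay far apart (log2 fold change -1.39 ± 0.36, edgeR adjusted p = 0.0340; without ethanol replicate 2 -1.50, adjusted p = 0.00799). Gas5 intron 1, with Snord80, had 70.9, 80.4, 75.1 and 40.5 CPM in ethanol and 136, 161, 222 and 205 CPM in control libraries. The groups did not overlap here either, yet the log2 fold change of -1.22 ± 0.39 missed the threshold (edgeR adjusted p = 0.0548); without ethanol replicate 2 it was -1.50 (adjusted p = 0.00812). Gas5 intron 3, with Gm25789, held 31328 of the Gas5 intron counts and had 688, 781, 963 and 416 CPM in ethanol and 810.0, 852, 1358 and 999 CPM in control libraries. These groups overlapped (log2 fold change -0.29 ± 0.38, edgeR adjusted p = 0.646).

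Snhg1 showed the same unevenness. Its intron 4, with Gm24453, fell to 12.2, 19.8, 17.7 and 12.3 CPM in ethanol, against 31.4, 53.3, 61.4 and 70.1 CPM in control libraries (log2 fold change -1.58 ± 0.40, edgeR adjusted p = 0.0337). Intron 3, with Gm24452, held 60199 of the Snhg1 counts and had 2089, 899.8, 1887 and 862 CPM in ethanol and 1694, 1767, 2208 and 1268 CPM in control libraries. Ethanol replicates 2 and 4 were low and the other 2 lay among the controls (log2 fold change -0.12 ± 0.38, edgeR adjusted p = 0.884). Intron 2, with Gm25894, had 232, 669, 138 and 75.1 CPM in ethanol and 178, 262, 185 and 203 CPM in control libraries. Ethanol replicate 2 alone stood high, and the log2 fold change of 0.78 ± 0.63 (edgeR adjusted p = 0.428) turned to -0.42 without it. The row of Snhg6 intron 2, with Snord87, was the third to fall (log2 fold change -1.71 ± 0.49, edgeR adjusted p = 0.0410).

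Shares within a host do not depend on how libraries are scaled. An exact permutation test (two-sided, 70 assignments, smallest p 0.0286) was run on 10 such shares, those of the 3 introns of Gas5 and of introns 1 to 7 of Snhg1. The shares were picked after the row values had been seen, their p-values are not adjusted, and shares of one host are not independent. Gas5 intron 1 took 7.65% ± 0.830 of the Gas5 intron counts in ethanol and 12.1% ± 0.889 in control libraries (SD, n = 4 each), and intron 2 took 11.9% ± 2.24 in ethanol and 21.02% ± 3.41 in control libraries. Intron 3 took the rest, 80.4% ± 2.56 in ethanol and 66.9% ± 3.65 in control libraries. In all 3 the groups did not overlap (exact permutation p = 0.0286 each). In Snhg1, intron 4 took 0.722% ± 0.255 in ethanol and 1.96% ± 0.847 in control libraries, intron 5 took 2.18% ± 0.672 in ethanol and 3.65% ± 0.604 in control libraries, and intron 6 took 9.73% ± 0.747 in ethanol and 12.8% ± 1.27 in control libraries. The groups did not overlap in these 3 (exact permutation p = 0.0286 each) and did overlap in introns 1, 2, 3 and 7 (exact permutation p = 0.629, 0.857, 0.943 and 0.800). Intron shares of other genes were not computed, so how often such groups lie apart elsewhere is not known.

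**Figure D3:**
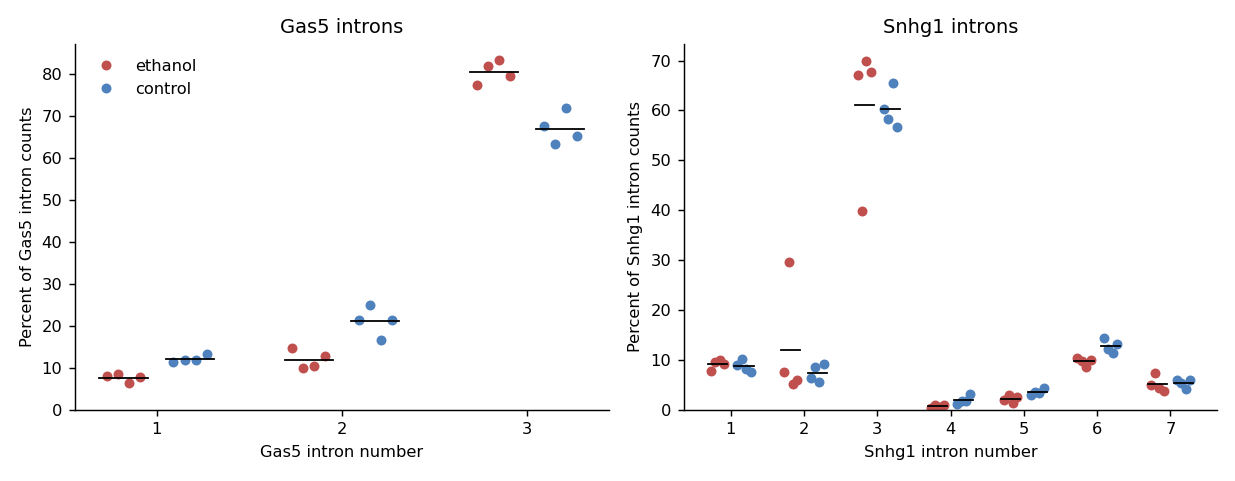
Percent of the Gas5 (left) and Snhg1 (right) intron counts that fell in each intron, per library; red points are ethanol and blue points control libraries, and bars are means of 4. Ethanol points lie below all control points for Gas5 introns 1 and 2 and Snhg1 introns 4, 5 and 6 and above them for Gas5 intron 3; in Snhg1 introns 2 and 3 ethanol replicate 2 stands alone.

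The Snhg5 introns 3 and 4, which hold Snord50b and Snord50a, had near-equal values. Intron 3 had 30.2, 54.5, 22.8 and 15.6 CPM in ethanol and 48.7, 56.4, 62.9 and 55.3 CPM in control libraries, and intron 4 had 33.8, 59.3, 24.1 and 16.8 CPM in ethanol and 53.9, 60.5, 64.9 and 57.6 CPM in control libraries. Counts of intron 3 were 89.6% to 94.5% of those of intron 4 in ethanol and 90.3% to 96.9% in control libraries. The log2 fold changes in the fit of single rows were -0.57 ± 0.46 and -0.53 ± 0.46 (edgeR adjusted p = 0.431 and 0.469), and without ethanol replicate 2 they were -1.23 and -1.19 (adjusted p = 0.0177 and 0.0218).

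The 10 hosted snoRNAs with a row of their own gave a second readout. Of these 9 could be tested, and 7 had negative log2 fold changes, with a median of -0.54. Over all 89 snoRNAs 79 were negative and the median was -0.78. By edgeR 0 of the 9 passed, against 20.2% of the 89 snoRNAs. An unadjusted p under 0.05 was seen for 3, and the DESeq2 Wald test called 3 and limma-voom 0. Without ethanol replicate 2 edgeR called 6. In that fit 381 of all 14384 features were called lower, and the share over all snoRNAs was not counted. Snord47 of Gas5, a box C/D snoRNA, had 21.7, 13.9, 21.9 and 8.30 CPM in ethanol and 30.6, 38.8, 37.7 and 37.8 CPM in control libraries. All ethanol libraries were lower, as in 33.7% of the 89 snoRNAs (log2 fold change -1.14 ± 0.38, edgeR adjusted p = 0.0577; without ethanol replicate 2 -1.14, adjusted p = 0.0262). The counts of the snoRNA row were 11.0% to 15.5% of those of this row and Gas5 intron 2 together in ethanol, and 10.3% to 10.7% in control libraries.

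Snord87 of Snhg6 was split the other way, with 97.0% to 99.4% of the counts in its own row in ethanol and 94.9% to 97.0% in control libraries. Its own row had 118, 114, 209 and 111 CPM in ethanol and 200.5, 224, 277 and 240.1 CPM in control libraries. Ethanol replicate 3 lay within the control range (log2 fold change -0.77 ± 0.41, edgeR adjusted p = 0.194). Snord99 of Snhg12 had 5.43, 10.7, 10.9 and 8.47 CPM in ethanol and 19.1, 29.2, 11.5 and 17.5 CPM in control libraries. Every ethanol library was lower (log2 fold change -1.12 ± 0.38, edgeR adjusted p = 0.0615; without ethanol replicate 2 -1.28, adjusted p = 0.0161). Snord22, in Snhg1 intron 8, stood at -0.12 ± 0.51 and Snora16a of Snhg12 at -0.54 ± 0.48 on the log2 scale (edgeR adjusted p = 0.893 and 0.435); without ethanol replicate 2 they stood at -0.94 and -1.32 (adjusted p = 0.0852 and 0.00985). Snora16a was highest in replicate 2 of both groups, with 42.7 CPM in ethanol and 42.2 CPM in control sperm. The fit without ethanol replicate 2 keeps that control, which adds to its fall. Snora73a had 0, 1, 0 and 0 counts in ethanol and 2, 1, 1 and 2 in control libraries and was not tested.

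The H/ACA snoRNAs Snora44 and Snora61 of Snhg12 and Snora73b of Snhg3 were highest in replicate 2 of both groups. Snora61 had 1.62, 28.4, 0.754 and 1.21 CPM in ethanol and 3.66, 16.0, 4.49 and 4.45 CPM in control libraries. Replicate 2 was the highest in either group. Its log2 fold change was 0.13 ± 1.02 (edgeR adjusted p = 0.943), and -2.59 without ethanol replicate 2 (adjusted p = 0.00534). Snora73b stood at -0.45 ± 0.90 (edgeR adjusted p = 0.756), and at -2.53 without that library (adjusted p = 0.00726). Snora44 stood at 0.23 ± 0.61 (edgeR adjusted p = 0.818), and at -0.89 without it (adjusted p = 0.159). The fits without ethanol replicate 2 keep the high control replicate 2, which adds to these falls. With the replicate number as a block Snora61 stood at -0.90 (edgeR adjusted p = 0.130).

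Snhg8, the single-exon host of the H/ACA Snora24, had 7.64, 19.4, 5.28 and 3.46 CPM in ethanol and 10.5, 26.6, 16.5 and 13.4 CPM in control libraries. Ethanol replicate 2 exceeded 3 of the controls, and the other ethanol libraries lay below all of them. The log2 fold change was -0.91 ± 0.49 (edgeR adjusted p = 0.207), and -1.67 without ethanol replicate 2 (adjusted p = 0.00569). The Snora24 row had 5.58, 13.9, 3.39 and 2.42 CPM in ethanol and 9.95, 25.9, 15.5 and 12.8 CPM in control libraries (log2 fold change -1.35 ± 0.50, edgeR adjusted p = 0.0813; without ethanol replicate 2 -2.12, adjusted p = 0.00193). Replicate 2 was the highest library of either group in both rows. The fits without ethanol replicate 2 keep the high control replicate 2, which adds to these falls. If the reads of Snora24 are also counted in the Snhg8 exon, 14, 26, 10 and 6 exon counts in ethanol and 2, 3, 4 and 2 in control libraries lay outside Snora24. The Snora24 counts equalled 69.8% ± 3.87 of the Snhg8 exon counts in ethanol and 95.5% ± 1.33 in control libraries, with no overlap (two-sided exact permutation p = 0.0286, the smallest possible). This ratio was picked after the counts had been seen.

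Set against the introns, the exon counts gave 12.4% ± 1.98 of all host counts in ethanol and 12.8% ± 1.26 in control libraries, a difference of -0.377 percentage points that is smaller than the spread. The direction turned to 12.7 points as a mean over hosts of the exon percent and to 2.06 points without the intron with the most counts in each host. In that mean Snhg3 and Snhg6 differed by 44.9 and 22.9 points, with as few as 2 and 14 counts in a library. Gas5, Snhg1, Snhg5 and Snhg12 differed by 3.49, -0.00653, 2.17 and 2.56 points. Nearly all exon counts summed over the hosts are those of the long Gas5 exon. By host, the exon percent of Gas5 was 33.7 ± 4.75 in ethanol and 30.2 ± 5.18 in control libraries (exact permutation p = 0.286, n = 4 each). That of Snhg5 was 3.67 ± 1.06 in ethanol and 1.498 ± 0.718 in control libraries (exact permutation p = 0.0571), and that of Snhg12 was 4.44 ± 2.20 in ethanol and 1.89 ± 0.420 in control libraries (exact permutation p = 0.0857). Snhg1 stood at 0.0215 ± 0.0138 in ethanol and 0.0281 ± 0.0271 in control libraries (exact permutation p = 0.743). These 4 two-sided p-values are unadjusted, and Snhg3 and Snhg6 had under 20 counts in some libraries. In the fit of exon to intron ratios across 3309 genes, where 11.2% were called higher in ethanol and the median difference was 0.93, Gas5 was the only host with enough counts in both. Its log2 ratio differed by 0.24 ± 0.44 (limma adjusted p = 0.696).

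Protein-coding genes that host snoRNAs differed in both kinds of row (the plot of host fold changes). Of 25 tested exon features in this list, 22 rose and 0 fell (median 2.02 on the log2 scale), against 23.8% of mRNA exons called higher and a median of 0.88 over all mRNA exons. Rack1, a ribosome-bound scaffold protein, had 44.7 ± 39.7 CPM in ethanol and 8.31 ± 2.52 CPM in control libraries (log2 fold change 2.42 ± 0.54, edgeR adjusted p = 0.0287). The ribosomal proteins Rps20 and Rpl23 rose by 2.22 ± 0.50 and 2.17 ± 0.50 on the log2 scale (edgeR adjusted p = 0.0287 each). Of 21 tested intron features 8 fell and 0 rose (median -1.14), against 1.88% of introns and 20.2% of 89 snoRNAs called lower. Introns of Rbmx, an RNA-binding protein, had 15.8 ± 3.72 CPM in ethanol and 76.03 ± 23.3 CPM in control libraries (log2 fold change -2.27 ± 0.40, edgeR adjusted p = 0.0287). Introns of the ribosomal proteins Rpl10 and Rpl23 fell by 2.15 and 1.73 on that scale (edgeR adjusted p = 0.0287 each). Without any 1 control library, 0 of the exons and 0 of the introns in this list passed. Without ethanol replicate 2, 21 exons rose and 14 introns fell, where 993 of all 14384 features were called higher and 381 lower. Rack1, Rps20 and Rpl23 exons then stood at 1.54, 1.37 and 1.37 on the log2 scale. The sum of epididymal markers and the level of Cd52 given above were also higher in every ethanol library, and their part in these exon counts was not tested.

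**Figure D4:**
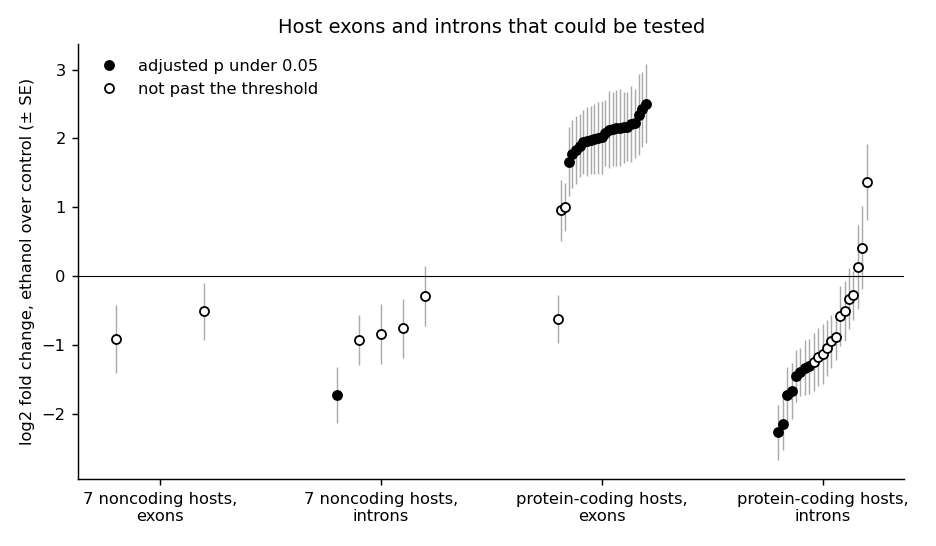
Log2 fold change of ethanol over control with its standard error for each tested exon or intron feature of the 7 noncoding hosts and of the listed protein-coding hosts; filled points have an edgeR adjusted p under 0.05. The 2 noncoding host exons lie below 0, while 22 of 25 protein-coding host exons are filled and above 0; introns of both kinds of host lie mostly below 0.

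Among 13 other noncoding snoRNA hosts, 1 exon feature and 3 intron features could be tested and 0 passed, where 14.3% of noncoding exons were called and 1.88% of introns were called lower; 0 exons and 1 intron had an unadjusted p under 0.05, and the DESeq2 Wald test called 0 of either. Dancr exons stood at -0.45 ± 0.39 (edgeR adjusted p = 0.430) and Dancr introns at -0.88 ± 0.39 (adjusted p = 0.129). Of the core proteins of snoRNA particles 3 could be tested and 1 passed, where 23.8% of mRNA exons were called higher. Nop10, a subunit of the H/ACA particle, rose with 9.70 ± 8.57 CPM in ethanol and 2.45 ± 1.01 CPM in control libraries (log2 fold change 1.97 ± 0.56, edgeR adjusted p = 0.0354). Without ethanol replicate 2 the Nop10 fold change was 1.12 on the log2 scale and did not pass (adjusted p = 0.0725). Of 7 tested nonsense-mediated decay factors 0 passed, with a median of 0.51 on the log2 scale, where mRNA exons had a median of 0.88 and 23.8% were called higher; 2 had an unadjusted p under 0.05, and the DESeq2 Wald test called 1. Smg1, the kinase of that pathway, stood at -0.15 ± 0.34 (edgeR adjusted p = 0.781).

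Likeness to Gas5 in level across the 8 libraries was measured as Pearson's r of log2(CPM + 1) over 8 libraries, which share their scaling and fall into 2 groups, and is a description. For Gas5 exons the 5 closest of 6828 exon features were Snord66, Snord1c, Snord91a, Snord1b and Snord68, with r of 0.967, 0.962, 0.957, 0.953 and 0.950. Snhg8 came at rank 35. For Gas5 introns the 5 closest of 5158 intron features were those of Rps12, Snrpb, Nop56, Hspa9 and Wdr48, with r of 0.964, 0.943, 0.936, 0.934 and 0.929. Snhg6 introns came at rank 8 (r = 0.923), Snhg12 at 62, Snhg5 at 91 and Snhg1 at 140.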

How the data were processed

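Per the file headers, the deposited values are counts of each exon, intron or other feature in each library, and no normalization is recorded; the aligner, counting rule, genome build and use of molecular identifiers are not given in the sources used here. Rows of one name and type were summed to 45090 features, of which 13515 passed edgeR's filterByExpr (minimum count 10) and were tested with edgeR 4.0.16 (TMM, robust quasi-likelihood fit, Benjamini-Hochberg adjustment, threshold 0.05) in R 4.3.3. A standard error is the log2 fold change divided by the square root of F. Exon to intron ratios, log2 of counts plus 0.5, were fitted with limma 3.58.1. DESeq2 1.42.0 was an alternative. Single values were compared by exact permutation in Python 3.11.15 with scipy 1.17.1. Both fits were tested on simulated data. Named features were every host row, hosted snoRNAs, up to 3 called members of each list (or, with none, the 2 of highest mean CPM), and the 5 features most like Gas5; any other was named with its values known. The genes and lists were chosen with earlier results of these data known. Ratios and shares of counts cover neither amplification bias nor reads shared between overlapping rows.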

Additional observations from a re-analysis of the deposited data

Results flagged for a closer look

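In 72 groups of 4 libraries, the exon, intron and snoRNA features of the hosts were looked at for a library far from the other 3 (Dixon's criterion at the 95% level); 7 groups had one, and chance gives about 1 in 20. Snora61 had 28.4 CPM in ethanol replicate 2, with the other ethanol libraries at 0.754 to 1.62 CPM, and 16.0 CPM in control replicate 2, with the others at 3.66 to 4.49 CPM. Snora73b had 13.3 CPM in ethanol replicate 2, with the others at 0.173 to 1.76 CPM, and 10.6 CPM in control replicate 2, with the others at 2.996 to 4.17 CPM. Snord87 had 209 CPM in ethanol replicate 3, with the others at 111 to 118 CPM. Gas5 exons had 516 CPM in control replicate 4, with the other controls at 666 to 683 CPM. Snord47 had 30.6 CPM in control replicate 1, with the others at 37.7 to 38.8 CPM.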

How the results depend on the processing

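Low counts and 4 libraries a group limit these results, and library totals in place of TMM moved the median log2 fold change of all features to 0.25 (main -0.01). Features called numbered 1842, against 1200 with DESeq2 size factors, 3144 with the DESeq2 Wald test, 8 with limma-voom and 3451 without a count filter. They numbered 818 without the 2 ethanol libraries coded POM2 (replicates 1 and 2) and 3317 without the 2 coded POEM (replicates 3 and 4). Without any 1 control library 3 to 10 were called, and without any 1 ethanol library 1057 to 3569. The cause of these differences was not tested. The shares of called features set beside the results are those of fits to all 8 libraries. Host exons called numbered 0, against 1 (Snhg8) without the POM2 pair and 0 to 1 with 1 library left out. Host introns called numbered 1, against 2 with the DESeq2 Wald test, 0 with limma-voom, 3 without the POM2 pair, 2 with exon and intron features alone and 0 to 3 with 1 library left out. Host intron rows called numbered 3, against 0 with limma-voom and 0 to 8 with 1 library left out. The exon percent difference of -0.377 became 12.7 as a mean over hosts, in which Snhg3 and Snhg6 with few counts weigh as much as the others. It became 2.06 without the intron with the most counts in each host and -1.18 to 0.395 with 1 library left out.

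Whether replicate numbers pair the samples is not known. Correlations of deviations between libraries of the same number were 0.357, 0.215, -0.137 and -0.024, and other pairs were not compared. Snora16a, Snora24, Snora44, Snora61 and Snora73b were each highest in replicate 2 of both groups. With the replicate number as a block 3294 features were called, 1 host exon (Snhg8), 1 host intron and 3 host intron rows. Signs turned for values that had not passed. With library totals Snord22 stood at 0.37, Snora73b at 0.11, Smg1 at 0.13 and Snhg1 introns 1, 3 and 7 at 0.10, 0.00086 and 0.14. Without the POEM pair Snord22 and Snora73b both stood at 0.29. Snora44 stood at -0.20 with limma-voom, -0.079 with the block, -1.33 without the POM2 pair and -0.054 with exon and intron features alone, and Snora61 at -1.25, -0.90, -2.83 and -0.22 in the same settings. With 1 library left out, Snord22 ranged over -0.94 to 0.10, Snora44 over -0.89 to 0.53, Snora61 over -2.59 to 0.72, and Snhg1 introns 1, 2 and 7 over -0.32 to 0.041, -0.42 to 0.98 and -0.45 to 0.10.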
